A study of Saccharomyces cerevisiae with 21 samples.

Results

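Wild-type Saccharomyces cerevisiae growing under zinc limitation was compared with the same strain growing under carbon limitation at 1 growth rate. The comparison rests on 6 of the 21 arrays of the series, chosen by their titles: all 3 arrays of zinc-limited (Zn) anaerobic chemostat cultures and all 3 arrays of carbon-limited (C) anaerobic reference cultures of the wild type. A chemostat is a culture fed and drained at a constant rate, so that the supply of 1 nutrient sets growth. Both groups were CEN.PK113-7D, a haploid laboratory strain labelled MATa for the C-limited cultures, and no deletion, transgene or drug is named for either. All cultures were sparged with nitrogen gas, held at pH 5.0 and fed at a dilution rate of 0.10 per h. The C-limited cultures were fed 25 g/L glucose as the limiting nutrient. In the Zn-limited cultures residual glucose was aimed at 17 g/L, Tween 80 and ergosterol were added (supplements that the growth text of the C-limited cultures does not name), and the vessels had been rinsed with nitric acid and EDTA. Each Zn to C comparison therefore also sets high against low glucose. The wild-type arrays limited for nitrogen (N), sulfur (S) and phosphorus (P), 3 per group, had the same glucose target as the Zn-limited ones and are used below to place Zn values. The S- and P-limited strain is given as CEN.PK113-7D with the genotype MATa MAL2-8c SUC2. The growth text of the N-limited arrays also speaks of air and of glucose limitation, and their titles were followed here (anaerobic, N-limited).

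Yeast takes up zinc through plasma membrane transporters, keeps a reserve of it in the vacuole, and uses it in many abundant enzymes, alcohol dehydrogenases among them. The activator Zap1 is known to switch on genes of zinc uptake, of release from the vacuole and its own gene when zinc is scarce. It is also known to start noncoding transcripts that repress ADH1 and ADH3. Growth on little glucose, in contrast, is known for high-affinity sugar uptake and for relief of the glucose repression that holds down respiration and the use of other sugars.

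Signals of each array were scaled to a common 2% trimmed mean, raised to a floor of 12 where lower, and taken as log2. Before scaling, the trimmed mean of C-limited arrays was 235 to 251 and that of Zn-limited arrays 398 to 466, so that the floor stood at 18.8 to 20.1 and 31.8 to 37.2 in the units of the deposited signal. For actin, the 3' probe set read 1.05 to 1.20 times the 5' probe set in C limitation and 1.31 to 1.47 times in Zn limitation. The part of this difference in the results was not tested. C- and Zn-limited arrays were deposited separately, so deposit and group cannot be told apart. Independent cultures are stated for the Zn-limited arrays, while for the C-limited ones nothing is said. The spread between the C-limited arrays may therefore be technical. The p-values and standard errors rest on a spread pooled over all 15 wild-type arrays fitted. An uneven N-, S- or P-limited group thus also bears on the comparison of Zn with C limitation. Precision is limited by the 3 arrays per group. The a-cell genes MFA1 (1787 to 3388 on all 6 arrays) and STE2 (377 to 649.9) were bright, and the alpha-cell genes STE3 (20.6 to 33.0) and SAG1 (24.3 to 67.4) were dim. MF(ALPHA)1, the other measured alpha-cell gene, was not dim throughout, since it stood higher in Zn limitation (log2 2.58), as given below.

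Of 5450 genes tested, limma called 814 between Zn and C limitation, where a call needs a Benjamini-Hochberg adjusted p under 0.05 and a change of 2-fold or more. Of all genes, 9.17% (500) were called higher in Zn limitation and 5.76% (314) lower. Counts within the gene lists below are to be read beside these shares, which some lists come near. A change of at least 4-fold was seen in 114 of the higher and 41 of the lower genes, and one of at least 10-fold in 32 and 11. In 4 of the 814 called genes the arrays of the groups overlapped, and over all tested genes 26.6% had every Zn-limited array above every C-limited one and 22.1% every one below. The direction of the whole depended on how arrays were scaled, since the median gene moved by -0.21 (log2) when arrays were set to a common median, by -0.12 after quantile normalisation and by 0.82 in the values as deposited. The counts were then 354 higher and 543 lower, 392 and 429, and 2282 and 64. Higher genes made up 61.4% of the calls under the trimmed mean, 39.5% under the common median, 47.7% after quantile normalisation and 97.3% as deposited. Changes below are relative to the trimmed mean, and a gene whose call ends under the common median or after quantile normalisation is named as such.

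**Figure D1:**
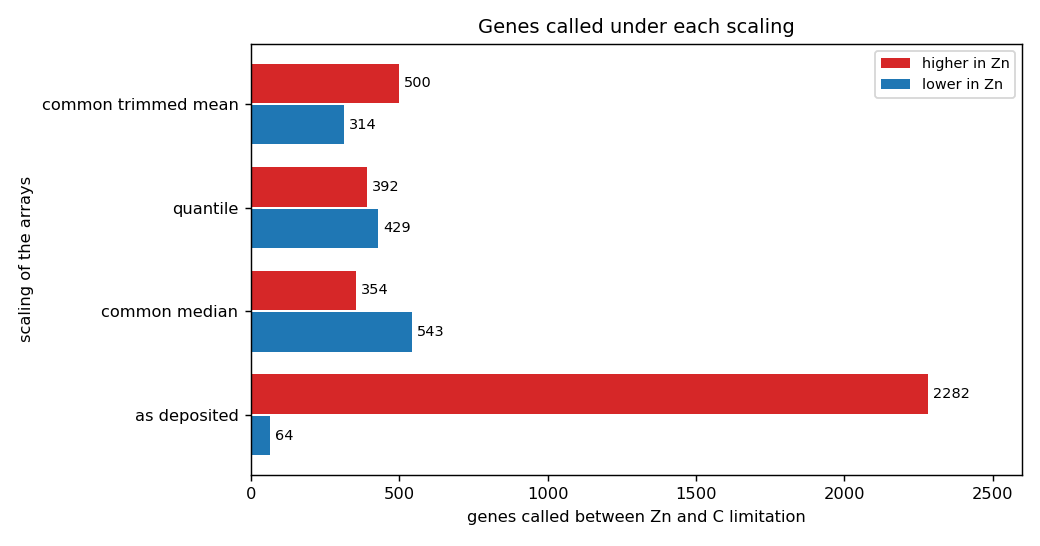
Number of genes called between Zn and C limitation (x axis) under 4 ways of scaling the arrays (y axis), with genes higher in Zn limitation in red and lower in blue. Higher genes outnumber lower ones under the trimmed mean (500 and 314) and as deposited (2282 and 64), and lower genes outnumber higher ones under the common median and after quantile normalisation.

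The brightest genes stood lower as a body under this scaling. The highest signal on an array was alike in both groups as deposited, 12056 to 13469 on C-limited and 10925 to 13139 on Zn-limited arrays, and became 7213 to 8606 and 4119 to 4570.0 after scaling. Among the 100 genes with the highest mean log2 signal over the 6 arrays, 90 had a log2 difference below 0, with a median of -0.54, and 17 were called lower and 0 higher by limma. After quantile normalisation 66 of them were below 0, with a median of -0.09.

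**Figure D2:**
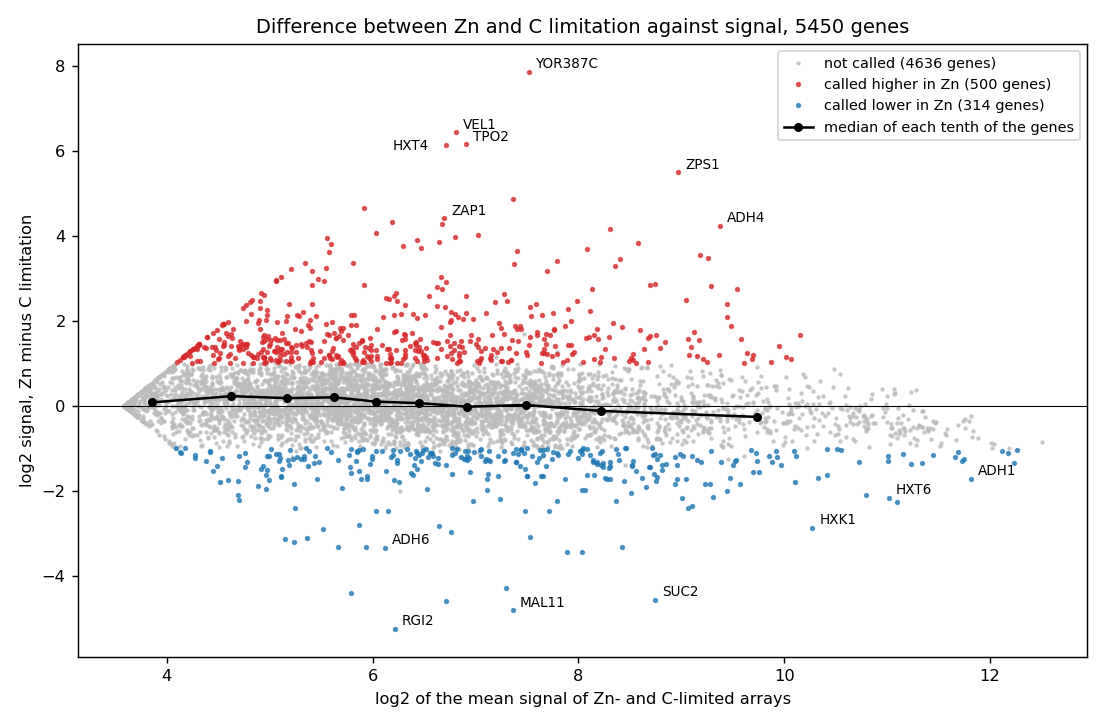
Difference between Zn and C limitation (y axis, log2) against the mean signal of the 6 arrays (x axis, log2) for 5450 genes, with called genes in colour and the median of each of 10 equal groups of genes by signal as a black line. The line passes from 0.23 in the group next to the dimmest to -0.26 in the brightest, and YOR387C stands highest and RGI2 lowest.

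Genes of zinc uptake, storage and regulation stood higher in Zn limitation. Of 15 measured members 10 rose, 0 fell, and the median change was 1.60 (log2) against 0.05 over all genes. Under the common median 8 were called, and after quantile normalisation 9. The zinc gene lists were written from general knowledge of yeast, part of which may rest on these same zinc-limited cultures, so their direction is not independent evidence.

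ZRT1 (YGL255W), the high-affinity zinc transporter gene of the plasma membrane, read 205, 114 and 207 in C limitation and 2058, 1873 and 2084 in Zn limitation, a rise of 11.8-fold (log2 3.56 ± 0.28, standard error of the fit, here and below; limma adjusted p 4.1e-07). All Zn-limited arrays lay above all C-limited ones, and the means in N, S and P limitation were 286, 304 and 238. Of 4 probe sets for ZRT1, 3 rose by 3.56 to 5.45 (log2), and the dimmest did not (-0.55). ZRT2, the low-affinity transporter gene, read 104, 103 and 118 against 909, 725 and 584 (6.71-fold). FET4, a low-affinity transporter of iron that also carries zinc, read 252, 205 and 248 against 850.4, 619 and 762 (3.15-fold). No array of either gene overlapped between the groups.

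ZRT3, which exports zinc from the vacuole, rose 7.11-fold, from 207 to 293 in C limitation to 1537 to 1732 in Zn limitation. ZRC1, which imports zinc into the vacuole, rose 3.03-fold, from 195 to 290.4 to 677 to 753. The other vacuolar zinc importer gene, COT1, was not called (log2 -0.35 ± 0.26), and its arrays overlapped. ZRG17, a subunit of a zinc transporter of the endoplasmic reticulum, rose 5.27-fold, while its partner gene MSC2 was not called (log2 0.47 ± 0.19). YKE4, another zinc transporter gene of the secretory pathway, was not called either (log2 0.15 ± 0.23).

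ZAP1 (YJL056C), the zinc-responsive activator gene itself, read 31.9, 16.4 and 21.4 in C limitation and 502, 408 and 530.3 in Zn limitation. Its rise was 21.3-fold (log2 4.41 ± 0.22), and its means in N, S and P limitation were 41.5, 23.8 and 44.3. ZPS1 (YOL154W), a gene for a cell wall protein related to zinc metalloproteinases, had the largest rise of the list: 78.5, 68.6 and 76.9 became 3232, 3588 and 3339.8, or 45.4-fold (log2 5.50 ± 0.13). In N limitation ZPS1 stood somewhat higher (mean 226) than in S and P limitation (97.1 and 100.2). Of the IZH genes, membrane proteins tied to zinc homeostasis, IZH2 (2.05-fold) and IZH4 (2.03-fold) were just past the fold of 2. Both calls ended under the common median (log2 0.79 and 0.78), and that of IZH4 also after quantile normalisation (0.99). Leaving out C-limited replicate 1 or Zn-limited replicate 1 ended the call of IZH2 (log2 0.91 and 0.96), and C-limited or Zn-limited replicate 2 that of IZH4 (0.92 and 0.97). IZH1 (log2 0.83 ± 0.16) and IZH3 (log2 -0.11 ± 0.25) were not called against C limitation.

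**Figure D3:**
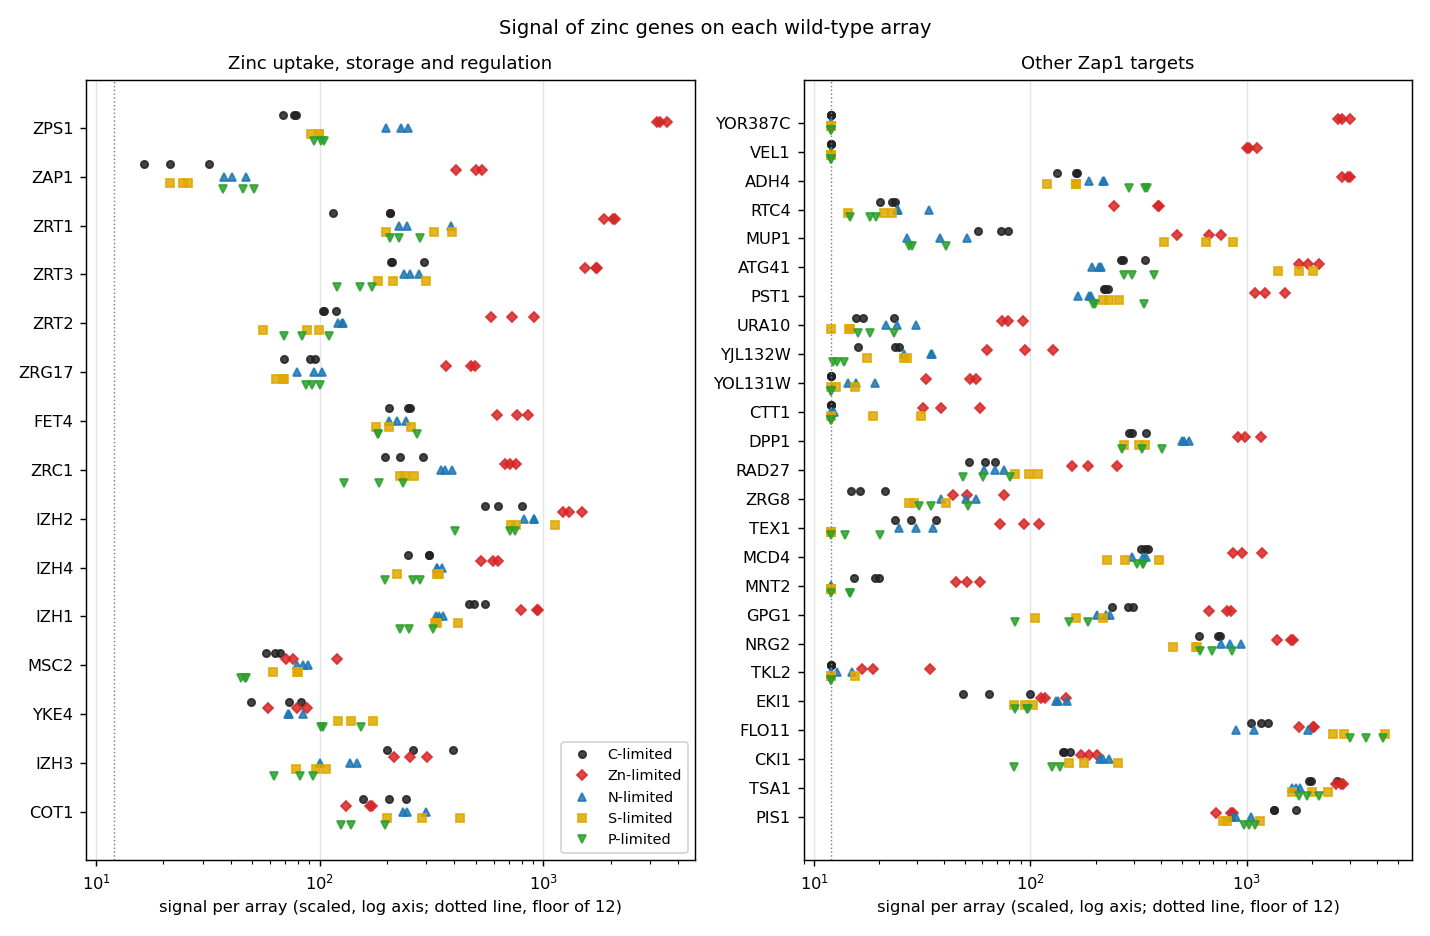
Scaled signal on each wild-type array (x axis, log scale) of the zinc uptake, storage and regulation genes (left) and the other Zap1 target genes (right), with a marker per array and a colour per limiting nutrient. Zn-limited arrays stand to the right of all others for ZPS1, ZAP1, ZRT1, ZRT3, ZRT2 and ZRG17 and for YOR387C, VEL1 and ADH4, and within the range of the others for COT1 and YKE4.

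Among other reported targets of Zap1, 19 of 25 rose, 0 fell and 6 were not called, with a median of 1.68 (log2). The count was 20 after quantile normalisation and 18 under the common median, where PIS1 was called lower. YOR387C and VEL1 (YGL258W), near-identical paralogues of little-known function whose probes may not tell them apart, lay at the floor in all 3 C-limited cultures. YOR387C read 2763, 3008 and 2641 in Zn limitation, at least 233-fold higher, and VEL1 read 1113, 1006 and 1024, at least 87.2-fold higher. Both were also at the floor in N, S and P limitation, so signal was seen in Zn limitation alone among the 5 wild-type groups. RTC4 rose 15.1-fold, from 20.1 to 23.6 to 244 to 391. PST1, a cell wall protein gene, rose 5.64-fold, from 218 to 229 to 1089 to 1502. URA10, a gene of pyrimidine synthesis, rose 4.41-fold and the uncharacterised YJL132W 4.33-fold. YOL131W rose at least 3.82-fold and CTT1, cytosolic catalase, at least 3.47-fold from the floor, and neither stayed called with a floor of 24.

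Other members rose less. DPP1, a lipid phosphatase gene of the vacuole, rose 3.31-fold, RAD27, a nuclease of DNA replication and repair, 3.20-fold, and ZRG8 3.19-fold. TEX1, of messenger RNA export, rose 3.13-fold, MCD4, of glycolipid anchor synthesis, 2.93-fold, and MNT2, a mannosyltransferase gene, 2.86-fold. GPG1 rose 2.85-fold and NRG2, a repressor gene, 2.22-fold, and the call of NRG2 ended under the common median (log2 0.90). MUP1, the methionine permease, and ATG41 (also known as ICY2), of autophagy, rose 9.06-fold and 6.70-fold. Their means in S limitation (643 and 1716) were close to the Zn-limited arrays (477 to 762 and 1737 to 2163), and those in N and P limitation were lower. Those not called were EKI1 (0.87), TKL2 (0.87), FLO11 (0.75), CKI1 (0.36), TSA1 (0.32) and PIS1 (-0.84), each a log2 difference. FLO11, the main adhesin gene, was called after quantile normalisation.

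Genes of zinc-dependent enzymes, which use the metal as a cofactor, moved the other way in part. Of 29 measured members 8 fell, 1 rose (PHO8, vacuolar alkaline phosphatase, 2.02-fold) and 20 were not called, with a median of -0.31 (0.50 in the values as deposited). Under the common median 0 rose and 10 fell, and after quantile normalisation 0 rose and 7 fell, so the call of PHO8 rests on the scaling (log2 0.77 and 0.92). It also ended without C-limited replicate 1 or 3 or Zn-limited replicate 2 or 3 (each between 0.97 and 0.98). The alcohol dehydrogenases held the largest falls. ADH1 (YOL086C), the main fermentative enzyme, read 6299, 7294 and 6015 in C limitation and 2009.8, 1732 and 2259 in Zn limitation, a fall of 3.28-fold (log2 -1.71 ± 0.28). Its change was -1.11 after quantile normalisation, where it stayed called, and -0.90 in the values as deposited, where it was not called. ADH3, the mitochondrial isozyme, fell 3.46-fold, from 1902 to 2297 to 547 to 657 (log2 -1.79 ± 0.14), with -1.72 after quantile normalisation. ADH5 fell 3.93-fold, from 449.8 to 592 to 87.4 to 181, and ADH6, an NADPH-dependent alcohol dehydrogenase gene, 10.1-fold. The arrays of ADH6 were 198, 241 and 226 against 23.6, 33.0 and 13.3.

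ADH4 (YGL256W), another alcohol dehydrogenase gene and a Zap1 target, moved in the opposite direction. It read 163, 133 and 164 in C limitation and 2749, 3000.1 and 2924 in Zn limitation, 18.9-fold higher (log2 4.24 ± 0.16). ADH2, the ethanol-oxidising isozyme, stayed near the floor in both groups (12 to 18.1 and 14.9 to 24.5) and was not called. SFA1, a formaldehyde and long-chain alcohol dehydrogenase gene, was not called (log2 0.78 ± 0.20). Outside the alcohol dehydrogenases, LYS20, homocitrate synthase of lysine synthesis, fell 3.08-fold, from 2308 to 2563 to 759 to 806. SOD1, the copper and zinc superoxide dismutase, fell 2.52-fold, from 977 to 1150.3 to 358 to 455. BDH1, butanediol dehydrogenase, and HIS4, of histidine synthesis, made up the rest of the 8 (2.62-fold and 2.03-fold). HIS4 was not called after quantile normalisation (log2 -0.91) or without C-limited or Zn-limited replicate 3 (-0.96 and -0.93). FBA1, the zinc-dependent aldolase of glycolysis, was not called (log2 -0.59 ± 0.17).

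**Figure D4:**
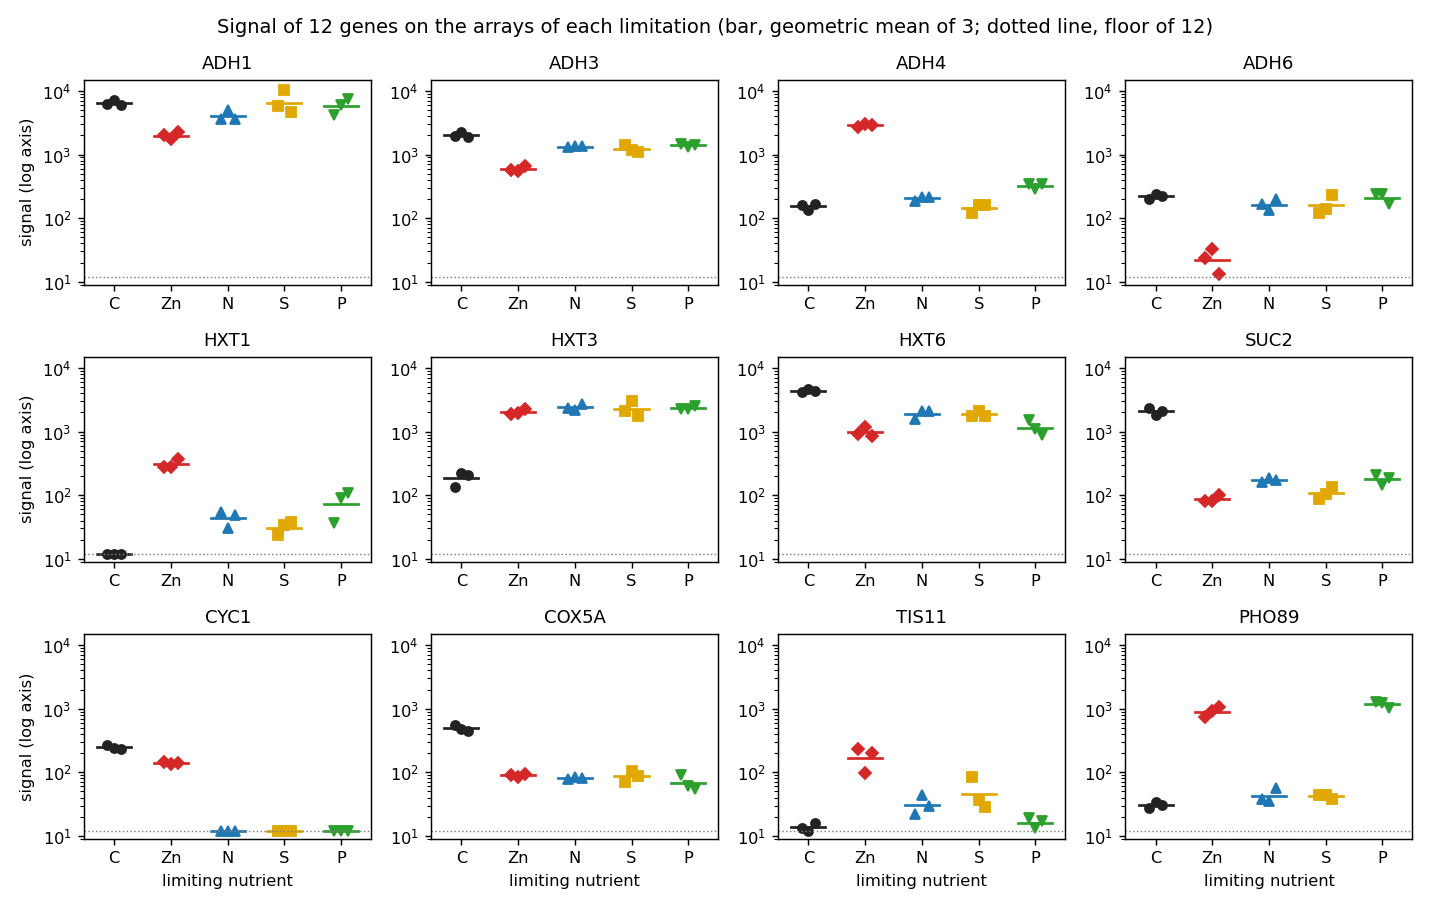
Scaled signal (y axis, log scale) of 12 genes on the 3 arrays of each of 5 limiting nutrients (x axis), with bars at the geometric means. ADH4, HXT1 and TIS11 are highest and ADH1, ADH3 and ADH6 lowest in Zn limitation, HXT3, HXT6, SUC2 and COX5A set C limitation apart from the other groups, CYC1 is above the floor in C and Zn limitation alone, and PHO89 is high in Zn and P limitation.

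All 3 measured genes of the list named low-affinity and glucose-induced hexose transport rose. HXT1 and HXT3 belong to this class, while the place of HXT4 in it is uncertain. HXT1 (YHR094C), the low-affinity transporter gene induced by high glucose, lay at the floor in every C-limited culture and read 281, 275 and 367 in Zn limitation, at least 25.4-fold higher (log2 at least 4.67, standard error 0.34). HXT3 read 135, 221 and 206 against 1898, 1931 and 2298, 11.1-fold higher. HXT4 went from 12 to 13.5 to 841 to 946, at least 71.0-fold, with a standard error of 1.08 on the log2 scale that takes in its spread in the other limitations (adjusted p 0.00057). HXT3 stood at means of 2411, 2312 and 2343 in N, S and P limitation, alike to Zn limitation, whereas HXT1 stood at 44.6, 31.5 and 78.8 there.

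Of 5 measured high-affinity and low-glucose transporter genes, HXT6 and HXT7 fell and 0 rose. HXT6 read 4214, 4638 and 4289 against 932, 1173 and 854 (4.48-fold lower), and HXT7 3543, 3641 and 3844 against 827, 985 and 781 (4.27-fold lower). These genes are near-identical, so their separate values are uncertain. HXT2, HXT5 and HXT10 were not called (log2 0.27, 0.44 and -0.04).

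Genes for the use of other sugars fell in 4 of 5 cases, with a median of -2.97. SUC2, invertase, read 2366, 1829 and 2079.5 in C limitation and 82.0, 82.0 and 101 in Zn limitation (23.7-fold lower). MAL11, a maltose permease gene, read 703, 1031 and 918 against 30.4, 26.3 and 37.0 (28.2-fold lower). MAL31, another maltose permease gene, fell 7.86-fold and the maltose activator gene MAL33 2.43-fold, and MAL13 was not called. HXK1, hexokinase 1, fell 7.30-fold, from 3022 to 3525 to 406 to 505 (log2 -2.69 after quantile normalisation).

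Glycolytic genes were mostly not called: of 17 measured, 1 rose, 2 fell and 14 were not called, with a median of -0.36 that became 0.09 after quantile normalisation. The riser was PDC5, a minor pyruvate decarboxylase (81.4 to 96.1 against 266 to 356, 3.67-fold). PDC1, the major isozyme, was not called (log2 0.38 ± 0.16). PDC6, the third isozyme, outside this list, rose from 13.7 to 22.2 in C limitation to as much as 94.4 in Zn limitation (4.60-fold, adjusted p 0.017), and its call ended without C-limited replicate 2 (adjusted p 0.065) or Zn-limited replicate 3 (0.053). Besides ADH1, TDH3, glyceraldehyde-3-phosphate dehydrogenase, fell 2.16-fold (log2 -1.11 ± 0.32). Its change was -0.29 after quantile normalisation, where it was not called.

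Mitochondrial genes fell in numbers. Of 34 genes of the respiratory chain and ATP synthase 23 fell and 0 rose, with a median of -1.24, and the count was 25 after quantile normalisation and 27 under the common median. COX5A, the aerobic subunit of cytochrome c oxidase, read 549, 486 and 449 against 90.5, 83.4 and 93.8 (5.53-fold lower). COX9 fell 5.13-fold, from 1207 to 1296 to 223 to 262, and COX7 4.49-fold, from 998 to 1229.6 to 156 to 304. TIM11, an ATP synthase subunit, fell 3.61-fold. Zn limitation was not set apart from the other glucose-rich groups here: COX5A had means of 80.5, 88.4 and 68.7 in N, S and P limitation, and the list's median differences from them were -0.04, 0.14 and 0.36 (log2).

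CYC1 (YJR048W), the aerobic cytochrome c gene, was among the 11 of that list that were not called. It read 272, 237 and 229 in C limitation and 144, 137 and 141 in Zn limitation (1.74-fold lower, log2 -0.80 ± 0.12), though it was called under the common median. In N, S and P limitation it was at the floor on all 9 arrays, so Zn limitation stood at least 11.7-fold above each of them. NDE1, an external NADH dehydrogenase of mitochondria, differed little between Zn and C limitation (log2 0.05 ± 0.25), and its Zn-limited arrays (90.4 to 129) stood above its means of 27.7, 29.2 and 28.0 in N, S and P limitation. ROX1, the heme-dependent repressor of hypoxic genes, lay at the floor in every C-limited culture and read 73.9, 56.1 and 74.1 in Zn limitation, at least 5.62-fold higher. Its means in N, S and P limitation were 15.2, 12.9 and 12. HEM13 and ANB1, hypoxic genes that Rox1 is known to repress, were not called (log2 0.62 and -0.27). Of 15 measured anaerobic and hypoxic genes 1 rose (ROX1) and 1 fell (TIR1).

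Of 17 tricarboxylic acid cycle genes 7 fell and 0 rose, with a median of -0.77 (0.05 as deposited). SDH4, SDH2 and SDH3, subunits of succinate dehydrogenase, fell 3.74-fold, 3.61-fold and 2.89-fold, and KGD1, of the ketoglutarate dehydrogenase complex, 2.70-fold. IDP1 and IDH2, isocitrate dehydrogenases, were not called (log2 -0.61 and -0.74). Fatty acid oxidation had 5 of 12 genes lower and 0 higher. POT1, the peroxisomal thiolase, was at least 4.26-fold lower (40.3 to 62.9 against 12 to 13.5), CAT2, carnitine acetyltransferase, 3.61-fold, and FAA2, a fatty acid activating enzyme, 2.84-fold. SPS19 was at least 2.79-fold lower and lost its call with a floor of 24, and PEX11, a peroxisome protein gene, fell 2.14-fold and lost it without C-limited replicate 2 (log2 -0.99). The other 7, among them POX1 (-0.48) and FOX2 (-0.02) of the peroxisomal pathway, peroxisomal catalase CTA1 (0.32), CRC1 (0.35), ECI1 (-0.10) and PXA2 (0.03), had log2 differences of -0.48 to 0.97. Of 11 genes of gluconeogenesis and the glyoxylate cycle only MDH2, cytosolic malate dehydrogenase, was called (2.47-fold lower), and PCK1 was not (log2 -0.88 ± 0.23), though it was called lower under the common median and after quantile normalisation. The others lay between -0.52 and 0.81 on the log2 scale, among them FBP1 (-0.01), ICL1 (-0.36), MLS1 (0.68), ACS1 (-0.24), IDP2 (0.34), ADY2 (0.15) and the activator genes CAT8 (-0.38) and SIP4 (0.81).

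**Figure D5:**
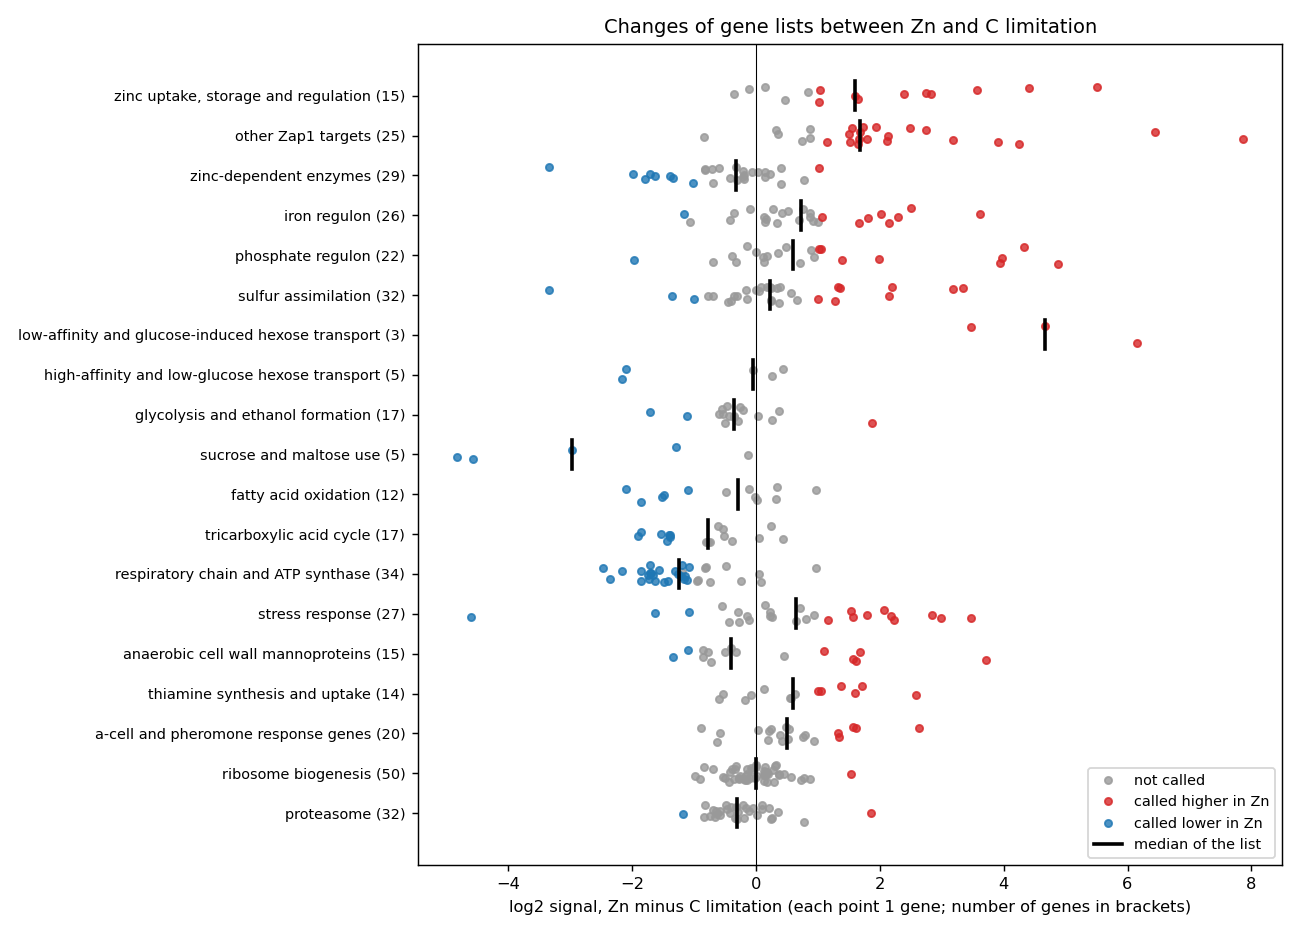
Difference between Zn and C limitation (x axis, log2) of each measured gene in 19 lists (y axis), with called genes in colour and the median of a list as a black bar. The medians of the zinc, Zap1 and low-affinity hexose transport lists lie to the right of 0. Those of the sucrose and maltose, tricarboxylic acid cycle and respiratory lists lie to the left. The stress, phosphate, sulfur and iron lists hold calls on both sides.

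Iron regulon genes, which are known to respond to iron supply through Aft1, stood higher in 8 of 26 cases, with 1 lower (FET5) and a median of 0.73. Under the common median and after quantile normalisation 7 were higher and 2 lower. FIT2, not called under the trimmed mean (log2 -1.06), was called lower under both of these scalings. TIS11 (YLR136C), which promotes decay of messenger RNAs of iron-using proteins, read 13.3, 12 and 15.7 in C limitation and 232, 99.0 and 205 in Zn limitation, at least 12.3-fold higher. FRE1, a ferric and cupric reductase, read 35.1, 26.5 and 29.0 against 143, 202 and 173 (5.71-fold). HMX1, heme oxygenase, was at least 4.91-fold higher (12 to 17.1 against 57.2 to 73.2) and FRE4, a siderophore reductase, at least 4.44-fold. These were also called higher against each of N, S and P limitation. FET3 (4.05-fold), FTR1 (3.16-fold), ARN1 (3.50-fold) and SIT1 (2.09-fold) rose too, but none of them was called against S limitation. Against N limitation ARN1 was not called and SIT1 was called lower (log2 -1.03). The call of SIT1 against C limitation ended under the common median (log2 0.82) and after quantile normalisation (0.84). It also ended without C-limited replicate 1 or 2 or Zn-limited replicate 1, and that of ARN1 without C-limited replicate 2 or Zn-limited replicate 1 or 3. AFT2, the paralogue of the iron activator gene, lay just under the fold of 2 (log2 1.00 ± 0.21), and FRE3 was not called (0.87 ± 0.19). Outside the list, MRS3, a mitochondrial iron carrier gene, read 148, 107 and 96.6 in C limitation and 12, 13.2 and 12 in Zn limitation, at least 9.29-fold lower.

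The copper regulon had 1 of 9 genes higher and 2 lower, beside 9.17% and 5.76% over all genes. CUP2, the copper-responsive activator gene, rose 2.84-fold, and COX17, a copper chaperone of mitochondria, fell 3.13-fold along with SOD1. CTR1, CTR2 and CTR3, copper transporters, were not called against C limitation (log2 0.39, 0.74 and 0.58). Nor were the metallothionein gene CRS5 (-0.99), the activator gene MAC1 (0.20) and the chaperone gene CCS1 (-0.34). CRS5 was called lower under the common median and after quantile normalisation.

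Phosphate genes rose in 8 of 22 cases and fell in 1 (PHM6), although phosphate was not the limiting nutrient. PHO89 (YBR296C), a sodium-phosphate transporter gene, read 27.4, 33.9 and 30.3 against 739.9, 904 and 1053 (29.3-fold), close to its P-limited mean of 1173. PHO84, the high-affinity transporter gene, rose 15.7-fold to 345, 553 and 454, still far below its mean of 3923 in P limitation. GIT1, a glycerophosphoinositol permease, read 12 to 19.9 against 206 to 415 (at least 20.0-fold, 969.6 in P limitation). PHM8, a phosphatase of lysophosphatidic acid and nucleotides, was at the floor in C limitation and read 150.3, 223 and 189 in Zn limitation, with a P-limited mean of 158. VTC4, a polyphosphate synthase subunit, and PHO81, an inhibitor of the Pho80-Pho85 kinase, were not called (log2 0.94 and 0.90).

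Sulfur assimilation had 8 of 32 genes higher and 3 lower. STR3, cystathionine beta-lyase, read 43.8 to 67.5 against 362 to 652 (10.1-fold), and YCT1, a cysteine transporter gene, 44.1 to 61.9 against 177 to 356 (4.59-fold), well below its S-limited mean of 2331. SUL1, a sulfate permease gene, read 1251, 1040.1 and 991 in C limitation and 103, 111 and 109.9 in Zn limitation (10.1-fold lower). CYS4 and STR2, of the transsulfuration path, were not called, though STR2 was called lower under the common median. Of 28 genes under nitrogen catabolite repression 4 rose and 3 fell. PUT1, proline oxidase, rose 5.29-fold, from 14.5 to 21.1 to 70.1 to 123, against a mean of 437 in N limitation. GAP1, the general amino acid permease, rose 3.19-fold to 212 to 303, against 2196 in N limitation. GDH3, a glutamate dehydrogenase isozyme gene, fell 5.31-fold, from 83.2 to 95.8 to 14.2 to 20.6. DIP5, a dicarboxylic amino acid permease gene outside the list, fell 10.8-fold, from 661 to 883 to 56.0 to 88.5.

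Stress genes were split. Of 27 measured stress response genes 10 rose, 3 fell and 14 were not called, with a median of 0.65. The list's median differences from N, S and P limitation were -0.09, 0.08 and 0.50 (log2), and 1 gene was higher against all 3. YGP1, a secreted glycoprotein gene, read 102, 106 and 98.2 against 995, 1077 and 1339, and ALD2, an aldehyde dehydrogenase gene, 12 to 18.7 against 84.2 to 168 (at least 7.97-fold). HSP26, a small heat shock protein gene, rose 7.21-fold. HSP12 and HSP104, also of the heat shock response, were not called (log2 0.94 and 0.81). MRK1, a kinase gene of the glycogen synthase kinase family, fell 24.3-fold, from 439, 527 and 600.3 to 23.6, 15.8 and 26.2. HSP30, a plasma membrane heat shock gene outside the list, read 55.4, 123 and 60.5 against 882, 1889 and 1454 (18.0-fold), with means of 107, 181 and 56.8 in N, S and P limitation.

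In oxidative stress defence 2 of 22 genes rose and 3 fell, beside 9.17% higher and 5.76% lower over all genes. AHP1, a thiol peroxidase gene, rose 5.27-fold, from 252 to 336 to 1518 to 1722, and its means in N, S and P limitation were 1370.1, 1114 and 1631. TSA1, the main peroxiredoxin and a reported Zap1 target, was bright in both groups (1942 to 2608 and 2583 to 2777) and not called. OYE3, an NADPH oxidoreductase gene, fell 2.26-fold and lost its call with a floor of 24. Of 20 genes of the unfolded protein response and folding in the endoplasmic reticulum 2 rose and 0 fell, against the same shares over all genes. HAC1, a member of the list, read 1119, 1027 and 1105 against 561, 451 and 368 and was not called (log2 -1.26 ± 1.27). Its standard error takes in its spread in P limitation (20.3, 1790 and 2534). On the 6 arrays alone HAC1 was called lower (limma adjusted p 0.0011). Its 4 probe sets spanned -1.26 to 1.78 (log2), and 1 was called higher. ERO1, the thiol oxidase that drives disulfide formation, read 37.2, 34.4 and 38.3 against 152, 178 and 164 (4.49-fold), and its means were 59.9, 32.5 and 39.7 in N, S and P limitation. LHS1, an Hsp70 of the endoplasmic reticulum, was just past the fold of 2 (log2 1.01), and its call ended under the common median (0.77), after quantile normalisation (0.90), and without C-limited replicate 2 or 3 or Zn-limited replicate 2 (0.92, 0.96 and 0.90).

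Reserve carbohydrate genes had 4 of 31 members higher and 6 lower, and 2 higher under the common median and after quantile normalisation. GAC1, which targets a phosphatase to glycogen synthase, read 131 to 192 against 18.8 to 41.3, and GLC3, the branching enzyme, 406 to 457 against 113 to 158. PIG2, a gene related to phosphatase targeting, read 34.3 to 45.7 against 125 to 224. The synthases GSY1 and GSY2 were not called (log2 -0.82 and -0.92), though both were called lower under the common median and GSY2 also after quantile normalisation. In glycerol metabolism 1 of 11 genes rose, GPP2, a glycerol phosphatase (3.15-fold), and 2 fell, beside 9.17% higher and 5.76% lower over all genes. GPD2, glycerol-3-phosphate dehydrogenase, fell 2.89-fold, with C-limited arrays at 76.9, 169 and 75.2. GUT1, glycerol kinase, fell 2.08-fold, and its call ended without Zn-limited replicate 2 (log2 -0.84). GPD1, the osmotic isozyme, was not called (log2 0.88 ± 0.18), and the other 7 lay between -0.62 (GUT2) and 0.90 (YPR1) on the log2 scale, with GPP1 at 0.08, DAK1 at 0.52, DAK2 at 0.19, GCY1 at -0.32 and FPS1 at -0.05.

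Cell wall genes rose and fell side by side. Of 15 cell wall mannoprotein genes 5 rose and 2 fell, after quantile normalisation 5 rose and 0 fell, and under the common median 4 rose and 4 fell. PIR3, a cross-linked wall protein, read 34.3, 22.9 and 18.5 against 366, 280.4 and 318 (13.1-fold), above its means of 68.9, 104 and 68.7 in N, S and P limitation. CWP1 rose 3.21-fold, HSP150 3.08-fold and SED1, the main wall protein of stationary cells, 2.97-fold, from 309 to 601 to 1176 to 1527. TIR1, an anaerobic mannoprotein gene, fell 2.54-fold (7213 to 8449 against 2832 to 3178), but by 0.55 on the log2 scale after quantile normalisation, where it was not called. CCW12, the brightest gene on the Zn-limited arrays, was not called (8335, 8606 and 6648 against 4236, 4570.0 and 4119). Under the common median it was called lower (log2 -1.11), and after quantile normalisation its difference was 0.09.

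Among flocculation and filamentous growth genes 5 of 12 rose and 0 fell. NRG1, a repressor of glucose-repressed and filamentation genes, read 23.1, 33.5 and 43.6 against 515, 637 and 445 (16.3-fold), with means of 92.9, 41.9 and 30.0 in N, S and P limitation. STE12, an activator of mating and filamentation genes, rose 3.23-fold, and FLO8 and MGA1 at least 2.60-fold and 2.52-fold from near the floor. FLO8 and MGA1 were not called with a floor of 24. PHD1 and TEC1, other activators of filamentous growth, were not called (log2 0.08 and -0.28). FLO5 (0.10), FLO10 (-0.17), MSB2 (0.35) and SFL1 (-0.82) were not called either.

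Of 20 a-cell and pheromone response genes 5 rose and 0 fell. AGA1, the anchor of the agglutinin, read 72.5, 60.3 and 54.4 against 447, 346 and 373 (6.23-fold), and its means in N, S and P limitation were 259, 287 and 382. FIG2 rose 3.06-fold, STE6, the a-factor exporter, 2.98-fold and FUS1, of cell fusion, 2.53-fold. MFA1 and MFA2, the a-factor genes, were not called (log2 -0.63 and -0.88), though MFA2 was called lower under the common median. A second, dimmer probe set of MFA1 differed in the other direction (log2 0.93) and was not called. MF(ALPHA)1 (YPL187W), which encodes the alpha-factor pheromone of the other mating type, read 35.1, 70.5 and 47.7 in C limitation and 402, 202 and 311 in Zn limitation (5.98-fold). Its means were 125, 28.8 and 31.6 in N, S and P limitation. The other 2 measured alpha-cell genes, STE3 and SAG1, were not called (log2 0.07 ± 0.23 and -0.82 ± 0.31), although SAG1 was called lower under both other scalings.

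Most lipid genes were not called. Of 23 genes of inositol and choline phospholipid synthesis 4 rose and 1 fell, beside 9.17% higher and 5.76% lower over all genes. The median of this list was 0.36 (log2) against 0.05 over all genes. INO1, inositol phosphate synthase, rose 3.68-fold (104 to 152 against 403 to 527), and HNM1, the choline transporter, 3.08-fold. PCT1, of phosphatidylcholine synthesis, rose 2.25-fold, and its call ended under the common median (log2 0.92), after quantile normalisation (0.98) and without C-limited replicate 2 (0.83). Of 30 sterol genes 2 rose: UPC2, the sterol activator gene (2.77-fold), and ARE2, a sterol ester synthase (at least 2.72-fold, not called with a floor of 24). Of 14 measured thiamine genes 6 rose and 0 fell. THI4, of thiazole synthesis, read 27.7, 29.0 and 34.0 against 161, 198 and 183 (5.98-fold), above its means of 67.3, 69.7 and 53.9 in N, S and P limitation. PET18, THI21 and SNZ1, a vitamin B6 synthesis gene, rose 3.29-fold, 3.02-fold and 2.59-fold. After quantile normalisation and under the common median 4 of the 14 were called.

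Genes of protein and RNA synthesis held few calls. All 22 measured ribosomal protein genes with a single copy had a log2 difference below 0 (median -0.51, with -0.16 after quantile normalisation and 0.30 as deposited). RPP1B alone was called (2.18-fold lower, not after quantile normalisation), and the other of its 2 probe sets was not called (log2 -0.40). Of 50 ribosome biogenesis genes NOP53, of large subunit assembly, rose (2.90-fold) and 0 fell. Of 31 RNA polymerase subunit genes 3 fell and 0 rose. RPO21, the largest subunit of RNA polymerase II, read 715, 775 and 571 against 302, 166 and 319.9 (2.70-fold lower). RPA14 and RPA49, of RNA polymerase I, were near the fold of 2. Without C-limited or Zn-limited replicate 2 the log2 difference of RPA14 was -0.92 and -0.90 and its call ended, and that of RPA49 ended without C-limited replicate 1 (-0.90) or 3 (-1.00) or Zn-limited replicate 1 (-0.95).

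Of 32 proteasome genes 1 rose and 1 fell. The riser was RPN4, the activator of proteasome genes (172, 164 and 205 against 559.9, 734 and 674), and PUP3, a core subunit, fell 2.26-fold. In amino acid synthesis 6 of 38 genes fell and 1, ARG8 of arginine synthesis, rose (2.38-fold). The valine and isoleucine genes ILV3 and ILV2 fell 2.50-fold and 2.39-fold, and LEU2 and HIS5 were not called. Of 22 purine and one-carbon genes 2 fell: IMD2, inosine monophosphate dehydrogenase, 3.29-fold, and ADE12 2.27-fold. Of 30 autophagy and vacuolar proteolysis genes 4 rose and 1 fell, with 2 higher after quantile normalisation and 1 under the common median. ATG22, a vacuolar amino acid exporter, rose 3.48-fold, CPS1, carboxypeptidase S, 2.24-fold and PRB1, proteinase B, 2.08-fold. CPS1 was not called under the common median or after quantile normalisation (log2 0.92 and 0.97), and PRB1 not under the common median (0.81) or without C-limited replicate 2 or Zn-limited replicate 1 (0.91 and 0.90). PAI3, the inhibitor of proteinase A, fell 3.10-fold.

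Several of the changes with the largest size lay outside these groups. TPO2, a polyamine exporter gene, read 13.4, 12 and 17.9 against 907, 979 and 1179, at least 71.4-fold higher, and its means of 84.7, 238 and 328 in N, S and P limitation were intermediate. HAB1 (YBR285W) and MNC1 (YBR056W-A) rose 19.5-fold and 13.0-fold. RGI2, of respiratory growth, read 305, 462 and 684 in C limitation and was at the floor in Zn limitation, at least 38.2-fold lower. It was at or near the floor in N, S and P limitation too (12.7, 12 and 12). YMR206W was at least 21.2-fold lower, ISF1, a gene tied to mitochondrial function, 19.5-fold and TMA10 10.9-fold. IRC18 was at least 9.97-fold lower, with Zn-limited arrays at 12, 50.9 and 12, and without Zn-limited replicate 2 its log2 difference was -4.01 in place of -3.32. The noncoding RNAs RPR1, RDN37-1 and RDN5-1 also fell (10.1-fold, 4.74-fold and 3.26-fold). For the last 2 this holds for the brightest probe set: of 7 probe sets of RDN37-1 3 were called lower and the others spanned -0.04 to 0.80 (log2), and the second of RDN5-1 was not called (-1.47). These are not polyadenylated messengers, RDN37-1 and RDN5-1 are repeated genes, and how their signal depends on labelling was not tested.

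Zn limitation was then set against N, S and P limitation, the groups with the same glucose target, and a gene was counted when it was called in the same direction against each of them. Of the 5450 genes 2.73% (149) were higher in Zn limitation in all 3 comparisons and 0.532% (29) lower. The counts were 125 and 50 under the common median, 129 and 49 after quantile normalisation, and 923 and 2 as deposited. These comparisons share the Zn-limited arrays with each other and with the one against C limitation. Before scaling, the trimmed mean was 398 to 466 on Zn-limited, 247 to 311 on N-limited and about 150 on S- and P-limited arrays. Differences of deposit or processing therefore cannot be told apart from the limiting nutrient here either.

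Of the zinc uptake, storage and regulation genes 9 of 15 were higher in all 3 comparisons, and of the other Zap1 targets 13 of 25. IZH1 and IZH3, not called against C limitation, were among the 9: IZH1 stood at 792 to 945 in Zn limitation against means of 343, 359 and 267, and IZH3 at 214 to 303 against 128, 93.8 and 79.1. ZRC1 was not among them, since its difference from N limitation was 0.96 (log2). Of the zinc-dependent enzymes 4 of 29 were lower in all 3 and 0 higher: ADH1, ADH3, ADH6 and APE1, a vacuolar aminopeptidase. ADH6 had means of 166, 165 and 212 in N, S and P limitation, so its differences from Zn limitation were -2.91, -2.86 and -3.26 (log2). For ADH1 they were -1.03, -1.72 and -1.53, and for ADH5, which was called only against P limitation of the 3, -0.62, -0.38 and -1.55.

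Other lists held single genes or a few. In the iron regulon 4 of 26 were higher in all 3, TIS11, FRE1, HMX1 and FRE4, and the copper list held CTR3, the high-affinity copper transporter gene (83.0 to 151 against 46.1, 18.8 and 15.2). JEN1, a lactate and pyruvate permease gene, was higher in Zn limitation (32.1, 40.9 and 65.1) than its means of 14.2, 12 and 12 in N, S and P limitation, and was not called against C limitation. PXA1, a peroxisomal transporter subunit of fatty acids, showed the same order (32.4 to 40.4 against 14.9, 14.2 and 12.6). In phosphate and sulfur assimilation 0 genes of 22 and of 32 were called in all 3 comparisons, in either direction. By the smallest fold against the 3 groups, the genes that stood farthest above were led by YOR387C and VEL1, then HAB1, ZPS1, RTC4, CYC1, MNC1 and ZAP1, and those farthest below were led by ADH6 and MRS3. MIN7, among the brightest called genes in Zn limitation (1773 to 2415), was also higher in all 3 comparisons (means 610.3, 420.1 and 309.6). BNA2, tryptophan dioxygenase of NAD synthesis, was lower in all 3, but its Zn-limited arrays read 71.4, 219 and 60.6, and against C limitation its call ended without Zn-limited replicate 3 (log2 -0.96).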

How the data were processed

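Expression was measured on Affymetrix YG-S98 arrays, of which 15 wild-type arrays in 5 groups of 3 were fitted. The intensity values deposited by the authors were linear signals from GCOS, per the submitters' processing notes; their background correction and scaling target are not given in the sources used here. Of 9335 probe sets, 6504 match 1 gene in the platform annotation, 328 several and 2443 none, and 60 are controls. Each array was scaled to a 2% trimmed mean of 150.2, values under 12 were set to 12, and the brightest probe set stood for a gene (315 genes had several). Genes at the floor on all 15 arrays (206 of 5656) were left out. The other 6 arrays, of msn2 msn4 mutants, belong to no comparison made here. They were left out of the main fit because an array among them is known to stand apart from its label, which widens the spread. With all 21 arrays fitted, 494 genes were higher and 312 lower in Zn than in C limitation.

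Groups were compared on the log2 scale with limma 3.58.1 in R 4.3.3 (lmFit and eBayes), adjusted over 5450 genes by the Benjamini-Hochberg method. A fold from or to a group at the floor is a bound, written as at least. The script was tested on simulated data. The members and gene lists were chosen with earlier results of these data known. Genes were named from a set, not all of it printed, that holds all measured members of the zinc, Zap1 and hexose transport lists and of lists with 12 or fewer measured genes. The set further holds, from each other list, the most changed calls (up to 4) and the uncalled genes of smallest adjusted p (up to 2), the 12 highest and 12 lowest genes of all, the 6 brightest called each way, the 8 farthest from N, S and P limitation each way, and paralogues. Genes making up a count of 5 or fewer, a few others set beside them (such as HEM13, ANB1 and NDE1) and those of the closing observations were named after their values were seen. Other scalings, floors, filters, probe set rules, array sets, a replicate block and leaving out each array were tried.

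No sign of pairing by replicate number was seen. Deviations of same-numbered C- and Zn-limited arrays correlated at 0.00620, -0.0538 and -0.0292, and those of unlike-numbered arrays at -0.0664 to 0.102. With 3 arrays per group this cannot show that the cultures were unpaired. Gene order was taken from the RefSeq R64 annotation. No coordinates are given, as no genome build is named for the arrays.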

Additional observations from a re-analysis of the deposited data

Results flagged for a closer look

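Probe sets outside the gene comparisons also carried signal that differed between the groups. Of 306 tested probe sets that match several genes, limma called 22 higher (7.19%) and 16 lower (5.23%) in Zn than in C limitation. Of 1220 tested probe sets with no annotated gene, 139 were higher (11.4%) and 30 lower (2.46%). Over the 5450 genes of the main comparison these shares were 9.17% and 5.76%. They are listed here because no comparison above uses them, and they were not assigned to genes.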

How the results depend on the processing

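The number of genes lower in Zn than in C limitation was 314 and became 543 under a common median, while without rescaling, as deposited, 2282 were higher and 64 lower. Against each of N, S and P limitation, the lower genes (29) became 50 under a common median and 49 after quantile normalisation, and as deposited 923 were higher and 2 lower. These settings differ only in how arrays were scaled. Under the floors of 24 and 6, no filter, the stricter filter, the probe set rules, the other array sets and the trend with a robust prior, the counts ranged from 402 to 711 higher and from 288 to 371 lower, the highest of each with all 7569 probe sets tested. Leaving out 1 array at a time gave 466 to 541 higher and 297 to 335 lower, and 143 to 166 and 28 to 32 against each of N, S and P. With the replicate number as a replicate block the counts were 505 higher and 324 lower on the 6 arrays and 500 and 315 on the 15 arrays. The replicate numbers gave no sign of pairing the samples, so the block is given once. Signal near the floor limits dim genes: 82 of the higher and 28 of the lower calls are bounds.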

Other observations

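Some genes outside the lists, named after their values were seen, also stood apart in Zn limitation. Among cell surface and membrane genes, NCW2, a wall protein gene, read 190.5, 136 and 154 in C limitation and 1069, 1128 and 1312 in Zn limitation (7.35-fold). CHS1, chitin synthase 1, rose 5.05-fold and NCA3 14.6-fold, and KTR2, a mannosyltransferase gene, 5.07-fold. All 4 were also higher than in each of N, S and P limitation, whereas WSC4, a gene of the stress sensor family, rose 13.6-fold from C limitation but had means of 223, 251 and 189 in N, S and P limitation. SUE1, needed for degradation of unstable forms of cytochrome c, was at the floor in C, N, S and P limitation and read 58.0, 52.5 and 78.8 in Zn limitation, at least 5.18-fold higher. On the lower side, INH1, the inhibitor of the ATP synthase, fell 8.49-fold and MIR1, the mitochondrial phosphate carrier, 5.29-fold.

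Several genes that differed from all other limitations lie next to each other in the R64 gene order. VEL1, MNT2, ADH4 and ZRT1 are consecutive and all 4 rose, while the next gene, FZF1, was not called (log2 -0.30 ± 0.20). HPF1, a wall mannoprotein gene, lies next to ZPS1 and rose 14.2-fold, with Zn-limited arrays at 1856, 816 and 1979. RTC4 and TEX1 are neighbours and both rose, and GIS2 and MRPL17 on their sides were not called (log2 -0.90 and -0.63). Beside YJL132W, which rose, MRS3 and DPI8 fell (log2 at most -3.22, and -2.27), LCB3 beyond DPI8 rose (log2 1.57 ± 0.20), and AIM23 on its other side was not called (log2 -0.24 ± 0.25). AQY2, an aquaporin gene, and YLL053C are neighbours and rose 10.3-fold and 8.14-fold, and the arrays do not show whether such pairs share a transcript.

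Of 42 small nucleolar RNA genes tested, 10 were lower in Zn limitation and 1 higher, with a median of -0.31, against 5.76% lower, 9.17% higher and a median of 0.05 over all genes. SNR13 read 129, 186 and 154 against 36.8, 26.3 and 22.1. How the signal of such RNAs depends on labelling was not tested.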
